A study of Mus musculus with 17 samples.

Results

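The nuclear-encoded oxidative phosphorylation genes are the subunit genes of the 5 mitochondrial respiratory complexes and of cytochrome c that lie outside the mitochondrial genome. Members were the protein-coding rows whose symbols start with Nduf and a subunit letter and number, Sdha to Sdhd, Uqcr, Cyc1, Cycs, Cox4 to Cox8 with a letter a to c, or Atp5, with a total of 20 or more counts over all libraries. There were 84 members among 31245 genes in the table, and all 84 were among the 26946 genes tested. Grouped by gene name alone, they comprised 38 genes of complex I, 4 of complex II, 9 of complex III, 15 of complex IV, 17 of complex V and Cycs. The group of a gene is therefore not a statement of where its protein sits. No measured value beyond the total count was used to choose them. The pattern does not take in Cox4i1, Cox4i2 or Ndufab1, which are given separately below. The members Ndufb1-ps and Cox5b-ps have names of the kind given to pseudogenes but are listed as protein-coding in the table.

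The table holds 17 lung RNA-seq libraries, each from a different mouse. Wild type (WT) Sv/129 mice, PPARα knock-out (KO) mice and humanized PPARα (KI) mice, which carry human PPARα in place of the mouse receptor, drank water with 6.2 µg/mL perfluorooctanoic acid (PFOA), a long-chain PFAS, or vehicle water with sucrose for 14 weeks. There were 2 WT vehicle, 3 WT PFOA, 3 KO vehicle, 3 KO PFOA, 3 KI vehicle and 3 KI PFOA libraries, named here by mouse number. All groups were fed a custom diet modelled on human intake from 6 weeks of age. The WT mice were purchased and the KO and KI mice were bred from shared PPARα null and human PPARα breeding pairs, so that genotype and breeding source cannot be told apart. The 6 KO mice were female. The males were WT vehicle 122, WT PFOA 56 and 65, KI vehicle 102 and KI PFOA 57. Whole lung holds many cell types, so that fewer cells of a type and less RNA per cell cannot be told apart.

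In mitochondria, complexes I and II take electrons from NADH and succinate and pass them through ubiquinone to complex III, cytochrome c carries them to complex IV, and complex IV hands them to oxygen. Complexes I, III and IV pump protons across the inner membrane, and complex V (ATP synthase) uses the return of those protons to make ATP. Most subunits are encoded in the nucleus, and complex IV has subunits with separate isoforms for heart and skeletal muscle. PPARα is a nuclear receptor that is known for turning on fatty acid oxidation genes, and PFOA is known to activate it.

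Library totals ranged from 4116118 to 9237356 counts (median, 7524757), and 3 counts corresponded to 0.325 to 0.729 CPM, the library-size-scaled count used throughout. The members took 0.149% to 0.317% of a library's counts. Protein-coding genes took 61.3% of the counts in KO vehicle 137 and 65.3% in WT vehicle 122 against 74.4% to 80.4% in the other libraries, and these 2 libraries stood apart from the rest. Lung markers were present in every library, with summed levels of 6 alveolar type 2 cell genes of 3151 to 9952 CPM and of 5 club cell genes of 5596 to 27740 CPM. The level of mouse Ppara was 6.67 ± 0.76 CPM in WT vehicle (SD, n = 2), 10.4 ± 1.3 in KO vehicle and 14.4 ± 1.52 in KI vehicle (SD, n = 3 each), so that it was not lower in the libraries labelled KO. The deleted part of the gene is not given in the sources used here, and a value over the whole gene therefore does not check the label.

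Among the members, ATP synthase subunits held both the highest and the lowest level. Levels between genes were compared as CPM per kb of exon, averaged over the 17 libraries, for the 83 members with an exon length. The exons of all annotated transcripts of a gene were joined for this length, so that the order of genes also depends on the annotation. Atp5a1 and Atp5b, the α and β subunits that form the catalytic head of ATP synthase, were highest at 77.6 and 50.2 CPM per kb. Atp5g2, one of 3 genes that encode the same mature c subunit of the rotor, was lowest at 0.822 CPM per kb. The other c subunit genes were Atp5g1 at 1.35 and Atp5g3 at 13.2 CPM per kb, so that Atp5g3 was the main c subunit gene per length. In complex I the range ran from Ndufb4 at 1.05 to Ndufb10 at 37.1 CPM per kb, both accessory subunits of the membrane arm. In complex II, Sdha, the flavoprotein that oxidizes succinate, was at 35.6 and Sdhc, a membrane anchor, at 9.24 CPM per kb. In complex III, Uqcr11 was at 28.1 and Cyc1, the cytochrome c1 subunit, at 9.92 CPM per kb. Without division by length, Sdhc was at 30.03 CPM and Sdhd at 21.8, and Cyc1 at 21.4 and Uqcr10 at 10.1 CPM. Complex IV ran from Cox6b2 at 1.97 to Cox8a at 38.1 CPM per kb, and Cycs stood at 4.03 CPM per kb. The medians were 9.998 CPM per kb in complex I, 15.6 in complex II, 19.0 in complex III, 11.5 in complex IV and 11.2 in complex V.

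**Figure D1:**
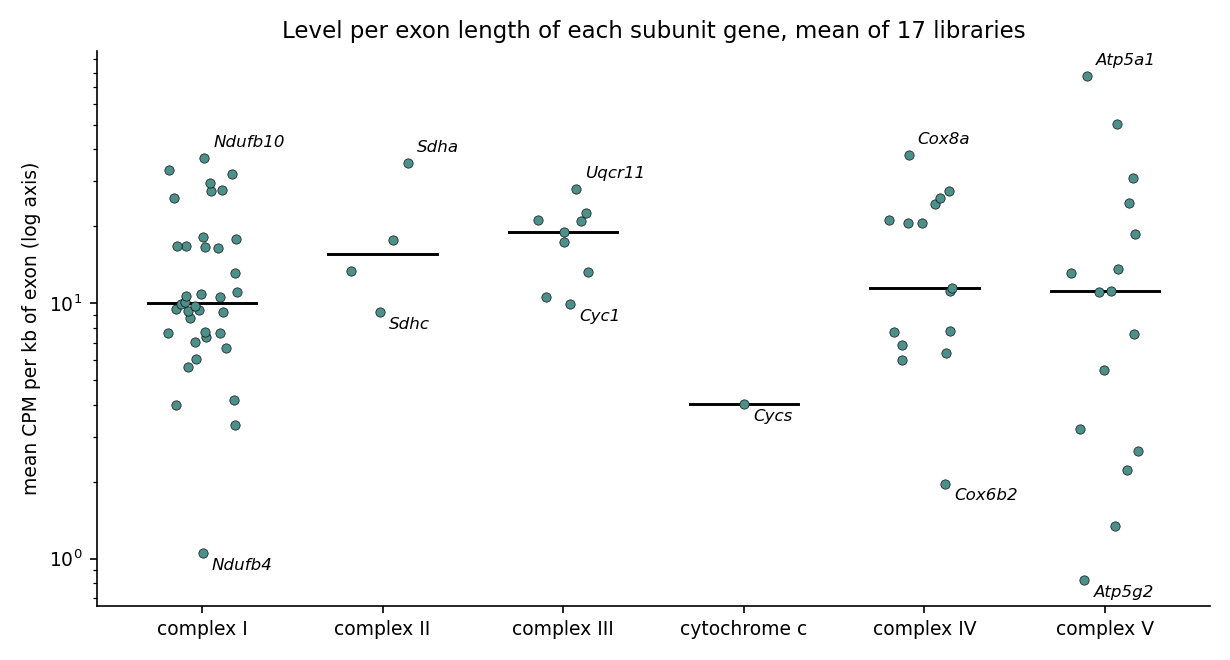
Mean level of each of 83 subunit genes over 17 lung libraries, in CPM per kb of exon on a log axis, by complex; each point is a gene, the black line is the median and the lowest and highest gene of each complex are named. Complex V spans the widest range, from Atp5g2 at 0.822 to Atp5a1 at 77.6 CPM per kb.

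Within complex IV the isoforms of one subunit were at unlike levels, and in the mean over all libraries the isoforms known from most tissues were the higher ones. Cox6a1 was at 24.6 and its muscle form Cox6a2 at 11.2 CPM per kb. Cox8a was at 38.1 and its muscle form Cox8b at 6.84 CPM per kb. Cox7a2 was at 11.5, its muscle form Cox7a1 at 5.99 and the related Cox7a2l, which takes part in joining complexes III and IV, at 27.5 CPM per kb. Cox6b1 was at 25.8 and its testis form Cox6b2 at 1.97 CPM per kb. In KI vehicle 102, KI PFOA 57 and KO vehicle 137 the order was reversed for 2 of these pairs, with Cox6a2 above Cox6a1 and Cox7a1 above Cox7a2 per kb. In KI vehicle 102, Cox6a2 was at 37.9 and Cox6a1 at 25.2 CPM per kb. Outside complex IV as counted here by gene names, Ndufa4, grouped with complex I, was at 8.77 and its relative Ndufa4l2, a gene known to be induced by low oxygen, at 7.06 CPM per kb. Cox7b was at 21.2 CPM per kb. Cox8c and Cox7b2, the testis forms of 2 further subunits, were not among the genes analysed here.

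KO vehicle 137 was the lowest of the 17 libraries in the summed CPM of each of the 5 complexes, and in mean log2 CPM in all but complex IV, where WT vehicle 122 was lowest. The summed level of the 84 members was 2349 CPM in WT vehicle 107 and 2123 in WT vehicle 122. In WT PFOA it was 2127, 2051 and 2683 CPM in libraries 50, 56 and 65. In KO vehicle it was 1415, 2102 and 2197 CPM in libraries 137, 145 and 149, and in KO PFOA it was 2572, 2090 and 2591 CPM in libraries 52, 154 and 155. KI vehicle libraries 102, 116 and 135 were at 3124, 2607 and 2305 CPM, and KI PFOA libraries 57, 80 and 139 at 3224, 2174 and 2373 CPM. KI vehicle 102 and KI PFOA 57 were the highest libraries, and the PFOA and vehicle groups overlapped in each genotype, in KO only through library 154 on PFOA. Mean log2 CPM of complex I was 4.02 ± 0.07 in WT vehicle (SD, n = 2), 4.07 ± 0.18 in WT PFOA, 3.82 ± 0.40 in KO vehicle, 4.17 ± 0.15 in KO PFOA, 4.22 ± 0.13 in KI vehicle and 4.19 ± 0.25 in KI PFOA (SD, n = 3 each). For complex V it was 4.29 ± 0.13, 4.32 ± 0.21, 4.23 ± 0.27, 4.44 ± 0.10, 4.59 ± 0.18 and 4.50 ± 0.24 in the same order. In both complexes the PFOA and vehicle means of a genotype differed by less than the larger SD of the pair. Of the 5 complexes, complex IV was the one whose KO vehicle and KO PFOA libraries did not overlap on this scale, with a mean log2 CPM of 3.05 ± 0.10 on vehicle and 3.48 ± 0.30 on PFOA (SD, n = 3 each), the highest vehicle library at 3.16 and the lowest PFOA library at 3.18. Its summed level did overlap, at 148.1 to 221.6 CPM on vehicle and 219.3 to 269.2 CPM on PFOA.

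**Figure D2:**
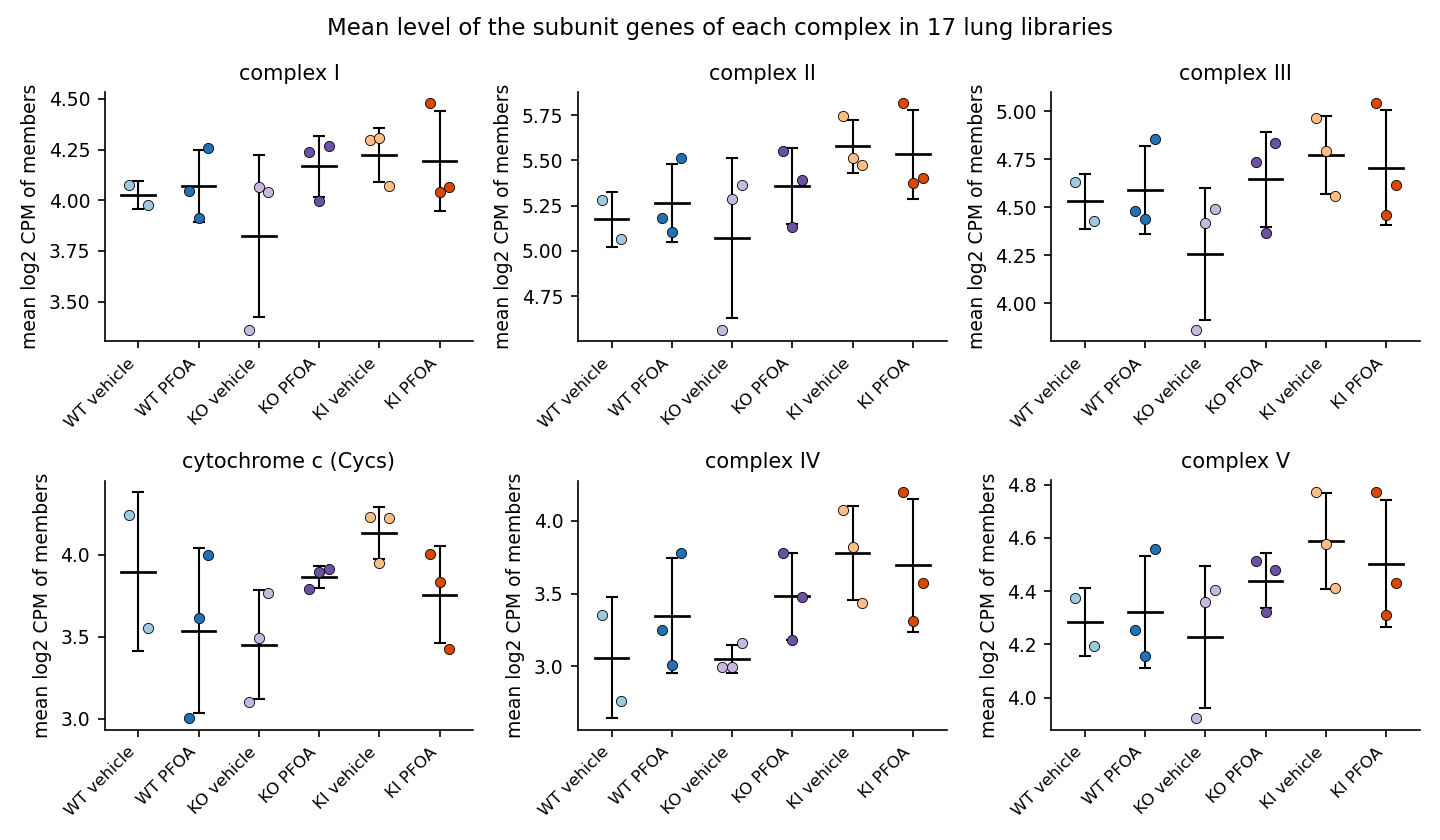
Mean log2 CPM of the member genes of each complex in 17 lung libraries, by group; each point is a library, the horizontal line is the group mean and the bar is 1 SD (n = 2 for WT vehicle and 3 elsewhere). KO vehicle 137 lies lowest in complex I at 3.36 and KI PFOA 57 highest at 4.48, and the PFOA and vehicle groups overlap in each genotype in that complex.

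In WT lungs no member passed the threshold used in the study for PFOA against vehicle, an adjusted p under 0.2 with a fold change over 2. Gene by gene, edgeR's quasi-likelihood test called 0 of 84 members, against 0% of all genes tested, and DESeq2 called 0 members as well. The share of all genes that DESeq2 called is not given, here or in the comparisons below. The paper, with DESeq2 on a smaller filtered set of genes, reported protein-coding genes altered at this threshold in WT and KO lungs, and fewest in KI. At an unadjusted p under 0.05, 1 member was higher and 1 lower with PFOA, against 7.35% of all genes, and the libraries of the 2 groups did not overlap for 11 members (7 higher and 4 lower) against 22.5% of all genes. The median log2 fold change was 0.07 over the members and 0.04 over all genes, and 49 of 84 members were above 0. The median SE of a member's log2 fold change was 0.27 in this comparison. The smallest edgeR adjusted p over all 26946 genes was 0.3045, so that no gene passed at any fold change. The 0 calls therefore do not show that the members were unchanged, also for changes of 2-fold. Markers of airway cells were lower with PFOA in the same libraries, with 4 of 5 club cell and 8 of 8 ciliated cell genes lower at an unadjusted p under 0.05, as were 4 of 6 smooth muscle genes, with 0 called by edgeR. Of the T and B cell genes 2 of 6 were higher at that p. WT vehicle 122, which stood apart in its protein-coding share, held the highest airway and smooth muscle sums of the WT libraries. The club cell sum was 13090 CPM in WT vehicle 107, 27740 in 122 and 8118 to 10240 in WT PFOA. The smooth muscle sum was 1583, 2755 and 953.5 to 1750 CPM in the same order, so that library 107 lay within the WT PFOA range. The ciliated cell sum was 410.4, 717.7 and 256.5 to 371.3 CPM. The part of these cells in the members' values was not tested. Leaving out WT PFOA 65, where cardiac muscle genes were also high (below), brought the number above 0 to 35 and the median to -0.06.

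The 3 smallest p-values among members whose groups did not overlap in WT were those of genes counted with complex I by name. Ndufb1-ps, an accessory subunit gene of complex I, was at 14.5 and 20.2 CPM in WT vehicle 107 and 122 and at 7.35, 10.1 and 10.9 CPM in WT PFOA 50, 56 and 65. The groups did not overlap, and the log2 fold change was -0.87 ± 0.28 (SE, edgeR adjusted p = 0.508). Ndufa4l2 was at 4.53 and 4.095 CPM on vehicle and 9.25, 6.14 and 6.55 CPM on PFOA, with a log2 fold change of 0.76 ± 0.34 (SE, edgeR adjusted p = 0.638). All 3 exposed libraries were above both vehicle libraries. Ndufs4, a complex I subunit needed for its stability, was at 27.3 and 29.0 CPM on vehicle and at 18.3, 20.3 and 25.7 CPM on PFOA (log2 fold change -0.39 ± 0.20, SE, edgeR adjusted p = 0.682). None of the 3 genes passed the threshold. Ndufb1-ps shares its locus with Cpsf2 and Ndufa4l2 with Shmt2 on the other strand, and whether the counting used strand is not given in the sources used here.

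In KO lungs most members had higher values with PFOA, but no member passed the threshold. The median log2 fold change was 0.31 over the members and -0.03 over all genes, and 77 of 84 members were above 0. edgeR and DESeq2 each called 0 members, against 0% of all genes with edgeR. At an unadjusted p under 0.05, 9 members were higher and 0 were lower, against 9.79% of all genes in either direction and 3.74% higher. The libraries did not overlap for 8 members, all higher, against 12.8% of all genes. By complex, 36 of 38 members of complex I, 4 of 4 of complex II, 9 of 9 of complex III, 14 of 15 of complex IV and 13 of 17 of complex V were above 0. Without KO vehicle 137, which had the lowest protein-coding share, 66 of 84 were above 0, the median was 0.14 and 3 members had an unadjusted p under 0.05.

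The members with the smallest p-values in KO were Ndufa1, Cox5b-ps and Ndufs7. Ndufa1, an X-linked accessory subunit of complex I, was at 1.38, 5.77 and 5.15 CPM in KO vehicle 137, 145 and 149 and at 8.37, 8.73 and 9.87 CPM in KO PFOA 52, 154 and 155. The exposed libraries were above all vehicle libraries, and the log2 fold change was 1.07 ± 0.36 (SE, edgeR adjusted p = 0.477). Cox5b-ps, a copy of the complex IV subunit gene Cox5b that can share reads with it, was at 4.38, 6.61 and 4.65 CPM on vehicle and 7.84, 8.41 and 9.27 CPM on PFOA, with a log2 fold change of 0.69 ± 0.25 (SE, edgeR adjusted p = 0.477). Ndufs7, an iron-sulfur subunit of complex I, was at 20.3, 25.3 and 26.8 CPM on vehicle and 28.4, 34.1 and 41.7 CPM on PFOA, with a log2 fold change of 0.52 ± 0.20 (SE, edgeR adjusted p = 0.483). None of the 3 overlapped between groups, and for each of them KO vehicle 137 held the lowest value. The 3 KO PFOA libraries had one second index in common that was used for none of the KO vehicle libraries, and within KO the index and the exposure cannot be told apart. Of the markers of other cells, 3 of 9 fat genes, 3 of 6 T and B cell genes and 2 of 6 alveolar macrophage genes were higher with PFOA in KO at an unadjusted p under 0.05. The alveolar macrophage sum was 62.4 to 207.4 CPM in KO vehicle and 277.4 to 312.5 CPM in KO PFOA, and the T and B cell sum 17.3 to 30.5 and 33.6 to 73.1 CPM, both without overlap, and their part in the members' values was not tested. With the index as a covariate, which the other genotypes make possible, 73 of 84 members were above 0 and the median was 0.28.

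In KI lungs no member passed the threshold with PFOA, and the median over the members was near 0. edgeR and DESeq2 called 0 of 84 members, against 0% of all genes with edgeR, and 0 members had an unadjusted p under 0.05, against 2.59% of all genes. The median log2 fold change was -0.04 over the members and 0.01 over all genes, with 30 members above 0. The members ran from -0.54 to 0.33, with a median SE of 0.24. The smallest edgeR adjusted p over all genes was 0.9036, so that the 0 calls do not show that the members were unchanged. Libraries did not overlap for 3 members (1 higher and 2 lower) against 8.23% of all genes. Those 3 members were Ndufa8, Uqcr10 and Atp5g2. Ndufa8, an accessory subunit of complex I, was at 15.3, 16.04 and 10.97 CPM in KI vehicle 102, 116 and 135 and at 19.3, 16.6 and 17.2 CPM in KI PFOA 57, 80 and 139 (log2 fold change 0.33 ± 0.21, SE, edgeR adjusted p = 1). Uqcr10, a small subunit of complex III, was at 11.3, 11.6 and 11.5 CPM on vehicle and 9.13, 8.74 and 9.92 CPM on PFOA (log2 fold change -0.31 ± 0.25, SE, edgeR adjusted p = 1). Atp5g2 was at 1.11, 1.27 and 1.26 CPM on vehicle and 1.03, 0.899 and 0.559 CPM on PFOA, at 4 to 10 counts a library (log2 fold change -0.54 ± 0.50, SE, edgeR adjusted p = 1). None of these 3 genes passed.

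Over the 3 genotypes together, no member passed the threshold for PFOA either. edgeR and DESeq2 called 0 of 84, against 0% of all genes with edgeR, with 0 members higher and 1 lower at an unadjusted p under 0.05, against 8.27% of all genes. The median log2 fold change was 0.10 over the members, -0.01 over all genes, and 75 members were above 0. Atp5g2 had the smallest p, with a log2 fold change of -0.70 ± 0.27 (SE, edgeR adjusted p = 0.523). It was at 2.13 and 1.80 CPM in WT vehicle and 1.39, 0.877 and 1.03 in WT PFOA, without overlap. In KO it was at 2.76, 2.11 and 1.51 CPM on vehicle and 1.46, 1.60 and 0.598 on PFOA, with library 154 above the lowest vehicle library. Ndufs8 (0.31 ± 0.15) and Ndufb3 (0.30 ± 0.15, log2 fold change and SE), both of complex I, followed with edgeR adjusted p-values of 0.615 and 0.641.

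The PFOA effect did not differ between genotypes for any member by the same threshold. For KO against WT, edgeR and DESeq2 called 0 of 84 differences, against 0% of all genes with edgeR, and 4 were higher and 0 lower at an unadjusted p under 0.05, against 7.46% of all genes. The 3 smallest p-values were those of Ndufb1-ps (difference of log2 fold changes, 1.16 ± 0.38), Ndufs7 (0.69 ± 0.30) and Cox5b-ps (0.81 ± 0.36; SE, edgeR adjusted p = 0.669 for each). For KI against WT, edgeR and DESeq2 called 0 of 84, against 0% of all genes with edgeR, and 0 members had an unadjusted p under 0.05, against 4.58% of all genes. Ndufs4 (0.50 ± 0.26), Ndufs3 (-0.53 ± 0.28) and Ndufb1-ps (0.64 ± 0.38) had the smallest p-values there (SE, edgeR adjusted p = 0.999 for each). The median SE of a difference was 0.37 for KO against WT and 0.36 for KI against WT.

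**Figure D3:**
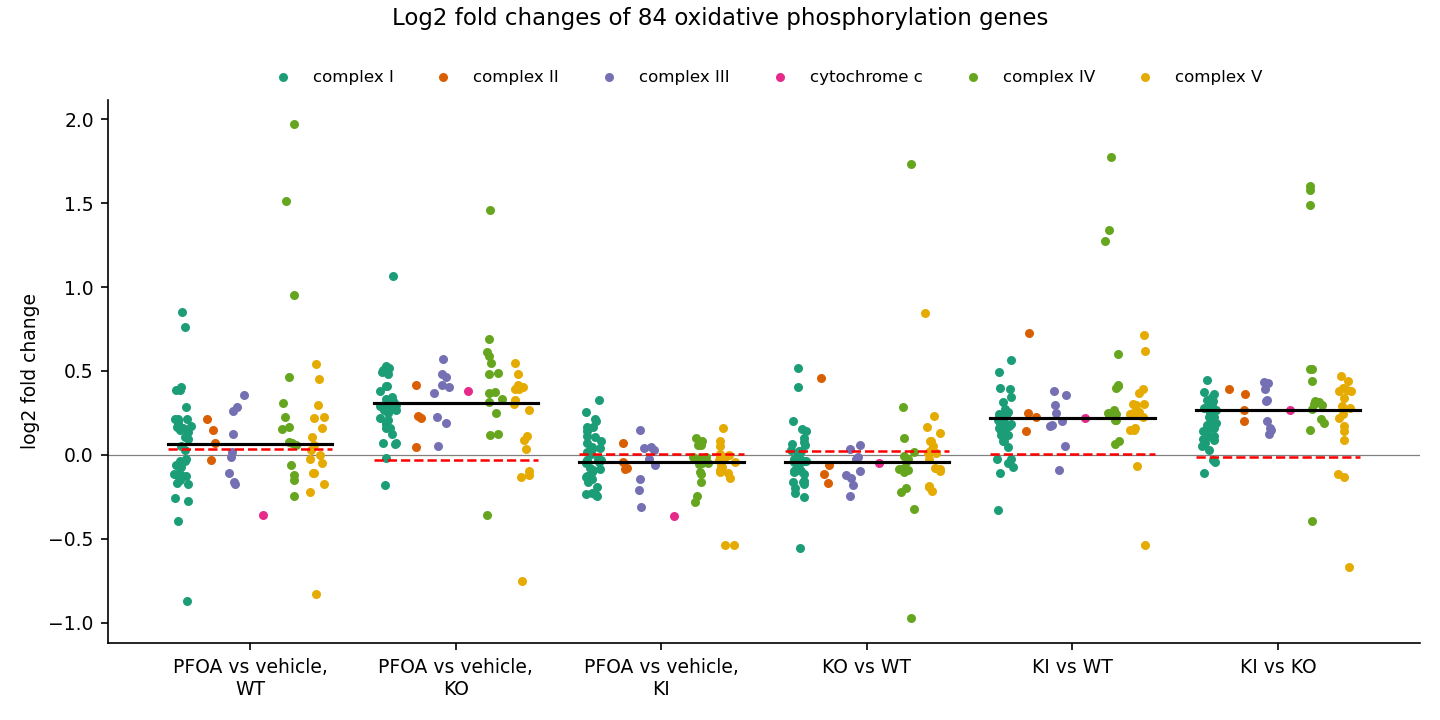
Log2 fold changes of the 84 members in 6 comparisons, coloured by complex; each point is a gene, the black line is the median of the members and the dashed red line the median of all genes tested. The members' median is 0.31 for PFOA in KO, 0.22 for KI against WT and 0.27 for KI against KO, and between -0.04 and 0.07 in the other 3 comparisons.

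Between genotypes, over both exposures, Cox6b2, Atp5e and Sdhc stood out among the members, each with higher values in KO and KI than in WT. The comparison asks how the genotypes differ over both exposures, and against WT it also spans the difference in breeding source. For KO against WT, edgeR called 1 of 84 members (Cox6b2), against 2.36% of all genes. At an adjusted p under 0.05 and any fold it called 2 (Cox6b2 and Atp5e), against 1.92% of all genes. With single libraries left out this number ran from 0 to 3, and it was 0 without KO vehicle 145 or 149, KO PFOA 154, WT vehicle 122 or WT PFOA 56. For KI against WT, edgeR called 1 member (Cox6b2), against 1.37% of all genes, and 1 (Sdhc) at an adjusted p under 0.05 and any fold, against 0.983%. These shares of members were near the background. For KI against KO, edgeR called 0 members by either rule, against 0.00742% of all genes by each rule, and DESeq2 called 0.

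Sdhc (ENSMUSG00000058076), which encodes the large membrane anchor of complex II, lies at chr1:171127165-171150603 on the minus strand of mm10. Its level was 22.1, 18.3, 25.7, 18.3 and 26.5 CPM in WT libraries 107, 122, 50, 56 and 65. It ranged from 20.04 to 36.3 CPM in the 6 KO libraries (median, 30.9), where KO vehicle 137 was the lowest and the other 5 were at 29.7 CPM or more. In the 6 KI libraries it ranged from 33.3 to 40.9 CPM (median, 35.9), above every WT library. The log2 fold change was 0.73 ± 0.14 for KI against WT (SE, edgeR adjusted p = 0.00662) and 0.46 ± 0.14 for KO against WT (SE, edgeR adjusted p = 0.0944). Both are below the 2-fold threshold. KI against KO differed by 0.27 ± 0.13 (SE, edgeR adjusted p = 0.9997 with an unadjusted p of 0.0454).

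Atp5e (ENSMUSG00000016252), which encodes the ε subunit in the central stalk of ATP synthase, lies at chr2:174461072-174464105 on the minus strand of mm10. It was at 12.8, 6.06, 8.87, 5.26 and 11.1 CPM in WT libraries 107, 122, 50, 56 and 65. It was at 11.7 to 18.4 CPM in KO (median, 16.6, n = 6) and at 10.8 to 18.2 CPM in KI (median, 14.5, n = 6). WT libraries overlapped the others only through libraries 107 and 65. The log2 fold change was 0.84 ± 0.21 for KO against WT (SE, edgeR adjusted p = 0.0369), 0.71 ± 0.21 for KI against WT (SE, edgeR adjusted p = 0.133) and -0.13 ± 0.19 for KI against KO (SE, edgeR adjusted p = 0.9997).

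Cox6b2 (ENSMUSG00000051811), the isoform of complex IV subunit 6B best known from testis, lies at chr7:4751792-4753094 on the minus strand of mm10. It had 4 to 13 counts in the 5 WT libraries, or 0.799, 0.655, 1.65, 0.731 and 0.643 CPM in libraries 107, 122, 50, 56 and 65. It was at 1.65 to 3.69 CPM in KO (median, 3.33, n = 6) and at 0.637 to 3.66 CPM in KI (median, 2.61, n = 6). The lowest KI library was 102, with 4 counts, and the lowest KO library, 155, was at the level of WT PFOA 50. The log2 fold change was 1.73 ± 0.41 for KO against WT (SE, edgeR adjusted p = 0.0290), 1.34 ± 0.41 for KI against WT (SE, edgeR adjusted p = 0.165) and -0.40 ± 0.35 for KI against KO (SE, edgeR adjusted p = 0.9997).

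Of the libraries, 3 of 5 WT, 0 of 6 KO and 2 of 6 KI were from males. In the 12 female libraries alone, which left WT vehicle 107 and WT PFOA 50 as the WT mice, the edgeR adjusted p was 0.564 for Sdhc in KI against WT, 0.534 for Atp5e in KO against WT and 0.423 for Cox6b2 in KO against WT, with log2 fold changes of 0.54, 0.57 and 1.301. With sex as a covariate over all 17 libraries, Sdhc in KI against WT was at 0.73 (edgeR adjusted p = 0.0109), Atp5e in KO against WT at 0.72 (edgeR adjusted p = 0.205) and Cox6b2 in KO against WT at 1.29 (edgeR adjusted p = 0.215). With the second index as a covariate, the edgeR adjusted p was 0.0369 for Sdhc, 0.112 for Atp5e and 0.139 for Cox6b2 in the same comparisons. With the summed level of 12 cardiac muscle genes (below) as a covariate it was 0.0505, 0.0326 and 0.0250. The direction was the same in each fit. With single libraries left out, the edgeR adjusted p ran from 0.000999 to 0.0290 for Sdhc in KI against WT, from 0.0123 to 0.100 for Atp5e and from 0.0108 to 0.0818 for Cox6b2 in KO against WT, and was over 0.05 in 0, 7 and 8 of 17 such fits.

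**Figure D4:**
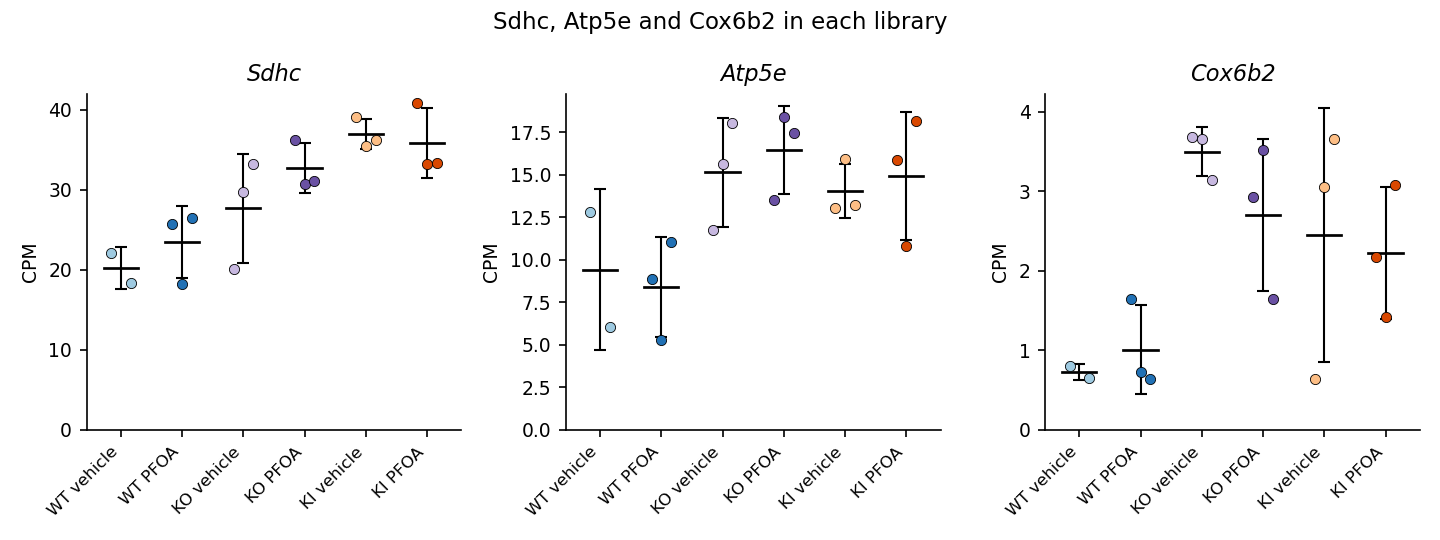
CPM of Sdhc, Atp5e and Cox6b2 in each of 17 lung libraries, by group; each point is a library, the horizontal line is the group mean and the bar is 1 SD (n = 2 for WT vehicle and 3 elsewhere). The 6 KI libraries lie between 33.3 and 40.9 CPM for Sdhc, above all 5 WT libraries at 18.3 to 26.5 CPM, and WT overlaps KI for the other genes.

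For most members a small elevation in KI over KO and WT was seen beside these single genes, but not in every KI library. The summed level of the members was 3124 CPM in KI vehicle 102 and 3224 in KI PFOA 57. KI vehicle 135 and KI PFOA 80 and 139 were at 2305, 2174 and 2373 CPM, and KI vehicle 116 at 2607 CPM. KO vehicle 137 was at 1415 CPM, the other KO libraries at 2090 to 2591 CPM and WT at 2051 to 2683 CPM. The members were counted in the same libraries, so that they are not 84 independent results. For KI against KO, 77 of 84 members were above 0 with a median log2 fold change of 0.27, against -0.01 over all genes. At an unadjusted p under 0.05, 20 members were higher and 0 lower, against 4.78% of all genes in either direction and 2.25% higher. Of these 20, 5 belonged to complex I, 2 to complex II, 3 to complex III, 5 to complex IV and 5 to complex V. Libraries did not overlap for 1 member (Ndufv2) against 0.141% of all genes. For KI against WT, 75 of 84 were above 0, the median was 0.22 (all genes, 0.01), and 15 were higher and 0 lower at an unadjusted p under 0.05, against 9.65% of all genes and 5.66% higher. Libraries did not overlap for 1 member (Sdhc) against 2% of all genes. For KO against WT, 29 of 84 members were above 0 and 55 below, with a median of -0.04 (all genes, 0.02), 4 higher and 0 lower at an unadjusted p under 0.05, against 12.9% of all genes and 7.43% higher, and 0 not overlapping against 2.76% of all genes.

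The members with the smallest p-values for KI against KO were Atp5d, Ndufv2 and Sdhb. Atp5d, the δ subunit beside Atp5e in the central stalk, was at 17.7 to 38.7 CPM in KO (median, 31.8, n = 6) and 33.4 to 52.6 CPM in KI (median, 41.1, n = 6). Ndufv2, an iron-sulfur subunit of the NADH-binding module of complex I, was at 14.5 to 23.9 CPM in KO (median, 20.1) and 24.03 to 29.7 CPM in KI (median, 25.5), without overlap. Sdhb, the iron-sulfur subunit of complex II, was at 22.5 to 32.7 CPM in KO (median, 25.2) and 29.3 to 45.8 CPM in KI (median, 30.4). KO vehicle 137 was the lowest KO library for Atp5d and Ndufv2, and KI PFOA 57 was the highest KI library for all 3 genes. Their log2 fold changes were 0.44 ± 0.14, 0.36 ± 0.12 and 0.39 ± 0.14 (SE, edgeR adjusted p = 0.9997 for each).

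Genes of cardiac muscle, which heart and the walls of pulmonary veins are known to express, were also higher in KI, and their part in this elevation was not tested beyond the fits given next. The summed level of 12 cardiac genes (Myh6, Myl7, Myl4, Actc1, Tnnt2, Tnni3, Nppa, Sln, Ryr2, Pln, Mybpc3 and Csrp3) was 8085 CPM in KI vehicle 102, 6756 in KI PFOA 57 and 4620 in WT PFOA 65. It was 341 to 2512 CPM in the other 14 libraries. By group, the sum was 569 to 833 CPM in WT vehicle, 394 to 4620 in WT PFOA, 341 to 2258 in KO vehicle, 397 to 1936 in KO PFOA, 2339 to 8085 in KI vehicle and 650 to 6756 in KI PFOA. Of the 12 genes, 11 had an unadjusted p under 0.05 for KI against KO, all higher, with a median log2 fold change of 1.85. Of the 12, 11 had counts in every library, Myh6 among them at 160.6 CPM or more, and Nppa, the atrial peptide, was at 0 in 6 libraries. The sum of 9 brown and white fat genes was also raised in KI vehicle 102 (123 CPM), KO PFOA 52 (109), WT PFOA 65 (84.6) and KI PFOA 57 (55.3) against 4.75 to 26.6 CPM elsewhere. The sum of 5 erythroid genes was highest in KI vehicle 102 (2526 CPM) and KI PFOA 57 (2471 CPM), against 405.1 to 1678 CPM elsewhere.

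With the cardiac sum as a covariate the median log2 fold change of the members for KI against KO fell to 0.10, with 69 of 84 above 0 and 1 at an unadjusted p under 0.05. Without KI vehicle 102 and KI PFOA 57 it was 0.13, with 74 above 0 and 2 at an unadjusted p under 0.05. Both of these mice were male, and in female libraries alone the median was 0.11, with 71 above 0 and 2 at an unadjusted p under 0.05. Without KO vehicle 137 it was 0.15, with 71 above 0 and 11 at an unadjusted p under 0.05. For KI against WT the median was 0.07 with the cardiac covariate (60 above 0), 0.09 without the 2 KI libraries (64 above 0) and 0.08 in females (59 above 0). Fewer libraries or an added covariate can lower the number at an unadjusted p under 0.05 for any set of genes. The median and the share of all genes in these fits are not given here, so that the fall in that number cannot be ascribed to the members.

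The muscle isoforms of complex IV were highest in the libraries with the highest cardiac sums. Cox6a2 was at 25.8 CPM in KI vehicle 102, 26.1 in KI PFOA 57 and 14.9 in WT PFOA 65, and at 0.33 to 7.64 CPM in the other 14 libraries. Cox7a1 was at 12.7, 11.99 and 4.76 CPM in the same 3 libraries and at 0.29 to 4.61 CPM elsewhere. Cox8b was at 6.05, 7.42 and 9.77 CPM there, at 0 to 4.12 CPM elsewhere, and without a count in WT vehicle 122. For all 3 genes the same 3 libraries were therefore the highest of 17. Fat genes were raised in some of these libraries too. Ucp1 was at 29.3 CPM in WT PFOA 65, 25.1 in KO PFOA 52 and 12.3 in KI vehicle 102, against 0 to 2.02 CPM elsewhere. Cox8b was highest in WT PFOA 65, and KO PFOA 52 came next after the 3 libraries at 4.12 CPM. The parts of cardiac muscle and fat in these levels were not tested against each other. For KI against KO the log2 fold changes were 1.60 ± 0.58 for Cox6a2, 1.49 ± 0.68 for Cox7a1 and 1.58 ± 0.81 for Cox8b (SE, edgeR adjusted p = 0.9997 for each), and with the cardiac covariate those of Cox7a1 and Cox8b turned to -0.37 and -0.20 while that of Cox6a2 was 0.20. Their counterparts Cox6a1 (0.32), Cox7a2 (0.44) and Cox8a (0.30) were above 0 by less on the log2 scale. Cox6a2 overlaps Itgad on the other strand.

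**Figure D5:**
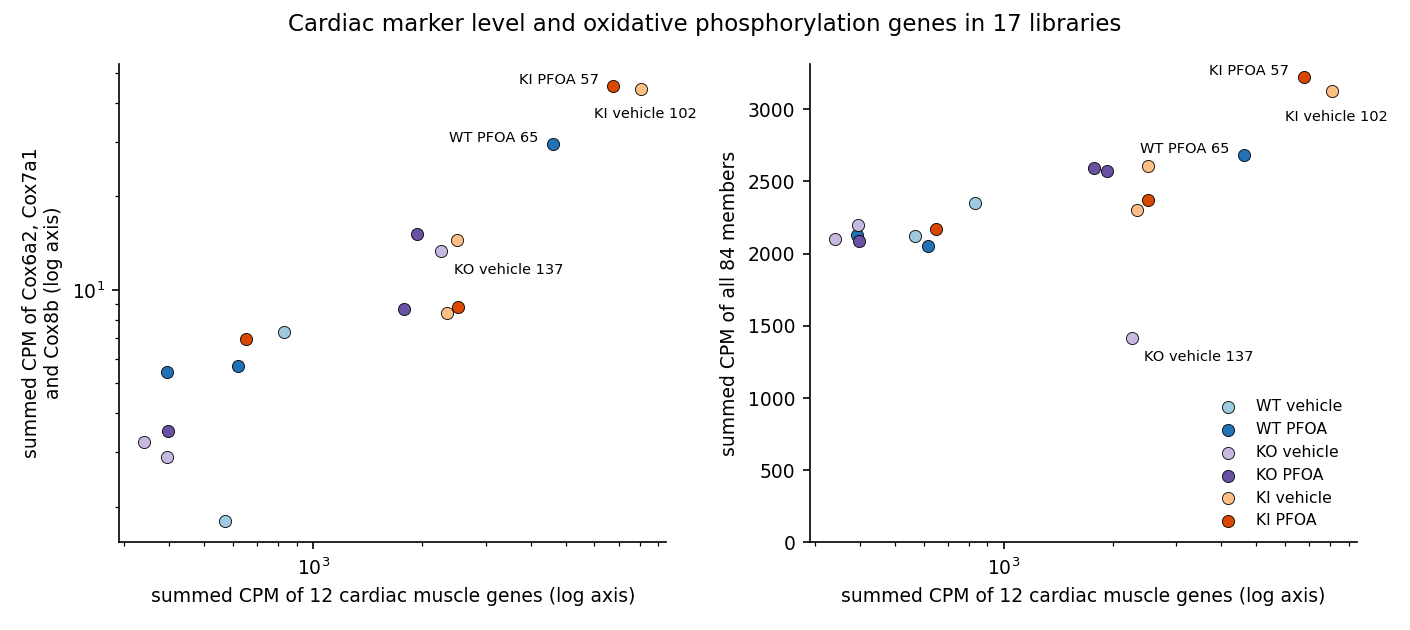
Summed CPM of Cox6a2, Cox7a1 and Cox8b (left, log axis) and of all 84 members (right, linear axis) against the summed CPM of 12 cardiac muscle genes (log axis) in 17 lung libraries; each point is a library, coloured by group. KI vehicle 102, KI PFOA 57 and WT PFOA 65 lie highest on the cardiac axis at 4620 to 8085 CPM and hold the highest muscle isoform sums at 29.4 to 45.6 CPM.

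No other gene of the pathway was called in the comparisons run here. Of 46 assembly factors, 12 regulators of mitochondrial biogenesis, 14 citric acid cycle enzymes, 11 outer membrane and import proteins, 13 subunits encoded in mitochondrial DNA and the subunits Cox4i1, Cox4i2 and Ndufab1, edgeR called 0 in all 9 comparisons and so did DESeq2. Of the 891 pairs of gene and comparison, 56 (6.29%) had an unadjusted p under 0.05 with edgeR, against 7.49% of all genes over the 9 comparisons, and 55 with DESeq2. For KI against KO, 6 citric acid cycle genes were higher at an unadjusted p under 0.05, against 2.25% of all genes. At that p 0 were lower, and 14 of 14 were above 0 with a median of 0.29. Among assembly factors 1 was higher and 1 lower, with 33 of 46 above 0 and a median of 0.06. Among import proteins 0 passed that p, with 10 of 11 above 0 and a median of 0.07. Among regulators 1 was higher and 0 lower, with 5 of 12 above 0 and a median of -0.003. For PFOA in KO, 14 of 14 citric acid cycle genes were above 0 (median, 0.27), against 10 of 11 import proteins (median, 0.17), 32 of 46 assembly factors (median, 0.10) and 5 of 12 regulators (median, -0.05). The citric acid cycle sum was 596.1 CPM in KO vehicle 137 and 810 and 813.5 in KO vehicle 145 and 149. In KO PFOA 52, 154 and 155 it was 992.6, 790.8 and 907 CPM, with library 154 below KO vehicle 145 and 149. In KI it was 1194 CPM in vehicle 102, 1176 in PFOA 57 and 846.3 to 949 in the other libraries. The differences between these lists were not tested. Cox4i1 and Cox4i2, which carry the core regulatory subunit of complex IV, summed to 101 to 109 CPM in WT vehicle, 101 to 110 in WT PFOA, 54.6 to 103 in KO vehicle, 84.5 to 124 in KO PFOA, 107 to 141 in KI vehicle and 89.8 to 151 in KI PFOA.

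The mitochondrially encoded subunits had their lowest level in another library than the nuclear ones. In KO vehicle 137, the lowest library for nuclear complex I, their sum was 11480 CPM, the highest of the 6 KO libraries, and in WT vehicle 122 it was the lowest of the 17 at 3569 CPM against 7450 to 15210 CPM in the others. For KI against WT, 13 of 13 were above 0 with a median log2 fold change of 0.68, and 13 had an unadjusted p under 0.05. Without WT vehicle 122 the median was 0.46, again with 13 at an unadjusted p under 0.05. For KI against KO the median was 0.29 with 0 at an unadjusted p under 0.05. For PFOA in KO, where the nuclear members had a median of 0.31, the median of the mitochondrial genes was -0.19 and 3 of 13 were above 0. For PFOA in WT, 13 of 13 were above 0 with a median of 0.51 and 1 at an unadjusted p under 0.05, and without WT vehicle 122 the median was -0.04 with 6 above 0. For KO against WT, 13 of 13 were above 0 with a median of 0.35 and 4 at an unadjusted p under 0.05, and without WT vehicle 122 the median was 0.15 with 1 at that p. In the main fits the share of all genes at that p was 9.65% for KI against WT and 12.9% for KO against WT. It was 4.78% for KI against KO and 7.35% for PFOA in WT. The 13 genes lie on the same mitochondrial genome and were counted in the same libraries, so that they are not 13 independent results.

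Several members have close gene copies in the table, and reads can be split between a gene and its copy. Of the 96 names that fit the pattern, 12 were left out because the table lists them as pseudogenes or as another biotype. The copy Ndufb4c held 94.3% of the counts of Ndufb4 and its copy together, Ndufs5-ps 75.5% with Ndufs5, Cox6c2 70.6% with Cox6c and Ndufa12-ps 66.9% with Ndufa12. For Cox7c, Atp5pb, Ndufs6, Atp5k and Ndufa11 the share of the copy was between 9.88% and 39.9%. For Uqcrh and Atp5c1 it was 2.14% and 1.79%. The low level of Ndufb4 given above is therefore uncertain, and so are those of the other genes with a large share in a copy. Sdhc, Atp5e and Cox6b2 had no such copy among the left-out rows.

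RefSeq promoter windows of mouse build GRCm38.p6 were given for 68 of the 84 members, as 73 windows, and the 250 bases before each start were searched on both strands for the letters of sites known from mitochondrial genes. CCGGAAG, the site of the ETS family factor GABP (also called NRF-2), was in 16.4% of the members' windows and 6.91% of all 32851 windows. GCATGCGC, a core of the site of NRF-1, was in 12.3% and 2.26%. CCAAT was in 42.5% and 33.9%, TATAAA in 9.59% and 12.4%, and CAGCTG, an E-box used in muscle, in 8.22% and 13%. These motifs do not contain one another. Windows of genes on the minus strand are at chr2:174464102-174464351 for Atp5e, chr7:4753095-4753344 for Cox6b2 and chr7:140900447-140900696 for Cox8b. Atp5e and Cox6b2 had an edgeR adjusted p under 0.05 for KO against WT, Atp5e at a fold below 2. Their windows and that of the muscle isoform Cox8b are given here. The upstream letters of a broadly used subunit gene can thus be read beside those of a testis and a muscle isoform. Sdhc had no window. Capitals mark the letters searched for, as they read on the strand of the gene.
Atp5e: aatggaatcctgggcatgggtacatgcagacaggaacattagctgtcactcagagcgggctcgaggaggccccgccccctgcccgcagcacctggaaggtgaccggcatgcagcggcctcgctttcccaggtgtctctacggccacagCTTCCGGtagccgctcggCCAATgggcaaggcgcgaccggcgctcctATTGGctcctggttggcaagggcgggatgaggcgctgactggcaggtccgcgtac
Cox6b2: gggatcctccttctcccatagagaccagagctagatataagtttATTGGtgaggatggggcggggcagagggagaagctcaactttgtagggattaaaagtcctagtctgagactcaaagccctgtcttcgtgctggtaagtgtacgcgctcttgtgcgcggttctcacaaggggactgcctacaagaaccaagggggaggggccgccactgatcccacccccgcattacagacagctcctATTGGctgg
Cox8b: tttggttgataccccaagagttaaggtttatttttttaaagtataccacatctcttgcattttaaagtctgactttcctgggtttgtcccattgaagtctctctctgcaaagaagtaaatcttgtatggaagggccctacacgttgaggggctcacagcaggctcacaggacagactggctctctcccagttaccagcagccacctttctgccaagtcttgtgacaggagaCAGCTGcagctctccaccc
Atp5e held the GABP letters in reverse, with their first base 102 bases before the start, and the CCAAT letters at 84 and, in reverse, 55 bases before it. Cox6b2 held the CCAAT letters in reverse at 206 and 9 bases before the start, and Cox8b a single E-box at 19 bases before it. A match of letters is a description and not a binding site.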

How the data were processed

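Lung RNA from 17 mice was measured by RNA-seq. From 6 ng of RNA the authors made stranded libraries of total RNA, trimmed 3′ ends, aligned reads to mm10 with STAR 2.6 and assigned them to genes by expectation maximization. The annotation release and the use of strand are not given in the sources used here. The authors deposited estimated counts per gene, of which 29.9% were not whole. The authors left out 1 further WT vehicle sample for RNA quality.

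Counts were rounded, genes with a total of 20 or more were kept (26946 genes) and CPM (counts scaled to a common library size) used TMM factors. Tests were edgeR 4.0.16 quasi-likelihood tests in R 4.3.3 with Benjamini-Hochberg adjustment over all genes tested. PFOA effects and their differences came from a fit of the 6 groups, and genotype comparisons from genotype plus exposure. Calls needed a fold above 2 beside an adjusted p below 0.2. DESeq2 1.42.0, other scalings, filters, covariates and left-out libraries were alternatives. Counts of 26445 genes were simulated, with 200 genes of a mean count over 20 changed 4-fold in the PFOA libraries. For the PFOA comparison 187 (WT), 190 (KO), 191 (KI) and 199 (over the 3 genotypes) were recovered, with 12, 23, 23 and 25 other calls. Recovery of smaller changes, or of genes with fewer counts, was not simulated. No pair of replicate libraries agreed within sampling noise (chi-square per degree of freedom, 6.29 or more).

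Members and gene lists were chosen with earlier results of these data known. Genes were named if called, if among the 3 smallest p-values in a comparison (where an arm was compared within a genotype, among those without overlap), as fixed isoform families, or as the highest and lowest level of a complex. Exon lengths came from GENCODE M21, with the exons of all transcripts of a gene joined.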

Additional observations from a re-analysis of the deposited data

How the results depend on the processing

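The number of members called stayed within 1.5 times its value in 267 combinations of comparison and alternative and left that range in 21. The main number was 0 in all comparisons but KO and KI against WT, and there a further 0 counted as within the range. The 267 therefore say little about stability. For PFOA in WT it was 0 to 1 over left-out libraries, with Ndufb1-ps called without WT vehicle 107, where the lone vehicle library is assumed to vary like the other groups. For KO against WT (1 member) it was 0 with sex as a covariate, 0 in female libraries only, 2 with the second index as a covariate, 2 at an adjusted p under 0.05 and 3 at an adjusted p under 0.2 at any fold, and 1 to 2 over left-out libraries, with Atp5e added without WT vehicle 107. For KI against WT (1 member) it was 0 without WT vehicle 122 and KO vehicle 137, 0 in female libraries only, 3 at an adjusted p under 0.2 at any fold, and 0 to 2 over left-out libraries. It was 0 without WT vehicle 107 or 122, WT PFOA 56, KO vehicle 149, KO PFOA 52 or 154, KI vehicle 116 or 135, or KI PFOA 57 or 139, and 2 (Cox6a2 and Cox7a1) without WT PFOA 65. With sex or the second index as a covariate the member called was Cox7a1 in place of Cox6b2. With the cardiac sum as a covariate the log2 fold changes for KI against KO turned to -0.37 for Cox7a1 and -0.20 for Cox8b. The causes were not tested. Of the combinations for single genes, 1225 kept their call and direction, 29 lost and 1 gained the call, 3 moved and 2 reversed. A gene called in neither fit counted among the 1225. The cardiac covariate, the female libraries and the fits without 2 named libraries were chosen after seeing the data. No paired analysis was possible because the mouse numbers are not shared between groups. The depth leaves Cox6b2 and Atp5g2 at 4 to 33 counts a library.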
